A study of Caenorhabditis elegans with 2 samples.

Results

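Autosomal distal intergenic peaks were the regions bound by eGFP-NHR-77 that lay away from annotated protein-coding starts and outside every annotated gene. A peak was counted here when its summit, the base of highest signal, fell on an autosome, more than 500 bp from every protein-coding transcript start and inside no gene of any biotype in the Ensembl annotation of WBcel235. Of the 2755 autosomal peaks, 710 met this rule (25.8%, 95% Wilson interval 24.2 to 27.4%), out of 3457 peaks on all chromosomes. The other autosomal peaks comprised 1480 within 500 bp of a start and 565 in genes but farther from starts, and 231 X-linked peaks met the same position rule.

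The data came from chromatin immunoprecipitation with sequencing (ChIP-seq) of whole Caenorhabditis elegans of mixed sex at the L4 larval stage. All animals were of strain OP353, which carries the unc-119(tm4063) allele on chromosome III and the integrated transgene wgIs353 expressing eGFP-tagged NHR-77. The 2 libraries were biological replicates of this single group, so no condition was compared. No untagged strain was analysed here, and whether a region would also be recovered without the tagged protein was not tested.

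NHR-77 is a nuclear hormone receptor, one of a family of zinc finger transcription factors that is greatly expanded in nematodes. In this compact genome most regulatory sequence lies close to gene starts, and the longer intergenic spaces can hold enhancers, promoters of noncoding RNAs and promoters whose transcripts are trimmed by trans-splicing, so that the annotated start lies downstream of initiation. Whole animals mix all tissues, and a peak does not tell in which cells the protein was bound.

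The sequences of a few members show what lay under the summits. Each spans the summit and 50 bp to either side of it, by the summit of the pooled list, read 5′ to 3′ on the plus strand of the RefSeq WBcel235 (ce11) genome, with capitals marking the GATA motif WGATAR (W is A or T, R is A or G), the GA repeat GAGAGAGA and the E-box CACGTG on either strand. Members are numbered from D1, the strongest, by pooled signal. The first set holds the 4 strongest members, at chrIII:8043915-8044015 near K12H4.5, chrIV:13919357-13919457 near Y37A1A.2, chrII:5320276-5320376 near vhp-1 and chrII:5844774-5844874 near ZK1248.17. They shared no one motif: D1 held a GA repeat, D2 overlapping GATA motifs, and D3 and D4 none of the marked letters.
D1: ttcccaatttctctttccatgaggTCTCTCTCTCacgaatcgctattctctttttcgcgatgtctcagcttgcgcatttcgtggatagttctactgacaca
D2: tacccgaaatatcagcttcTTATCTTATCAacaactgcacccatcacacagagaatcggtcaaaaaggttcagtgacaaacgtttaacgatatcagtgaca
D3: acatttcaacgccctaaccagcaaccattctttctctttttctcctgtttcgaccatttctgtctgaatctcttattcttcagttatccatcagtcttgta
D4: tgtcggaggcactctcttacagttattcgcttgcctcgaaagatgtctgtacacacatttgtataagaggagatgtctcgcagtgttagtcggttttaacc

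The second set holds the strongest of the members with 4 GATA motif sites each, the highest number found in any member. They lay at chrII:915370-915470 near fbxc-29, an F-box protein gene, chrIV:13327209-13327309 near far-6, a fatty acid and retinol binding protein gene, chrII:14959411-14959511 near Y53F4B.1 and chrII:8740513-8740613 near idpb-4. In each of them the sites were spread over the window and occurred on both strands or on the minus strand alone.
D22: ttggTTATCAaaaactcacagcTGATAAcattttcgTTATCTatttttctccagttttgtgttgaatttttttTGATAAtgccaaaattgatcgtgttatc
D44: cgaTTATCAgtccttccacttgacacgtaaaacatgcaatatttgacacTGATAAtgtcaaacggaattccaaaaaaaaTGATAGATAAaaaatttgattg
D56: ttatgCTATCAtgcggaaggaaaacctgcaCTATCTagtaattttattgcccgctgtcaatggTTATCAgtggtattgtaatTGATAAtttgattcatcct
D210: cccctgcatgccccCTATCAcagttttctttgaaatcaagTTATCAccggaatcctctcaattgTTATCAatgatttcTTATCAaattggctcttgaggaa

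The third set shows strong members with the GA repeat, besides D1, at chrIII:5202772-5202872 near emb-8 and chrII:14251533-14251633 near Y54G11A.2, and with the E-box, at chrII:14598485-14598585 near tps-2 and chrV:1456773-1456873 near chil-14. D7 and D55 also held a GATA motif.
D7: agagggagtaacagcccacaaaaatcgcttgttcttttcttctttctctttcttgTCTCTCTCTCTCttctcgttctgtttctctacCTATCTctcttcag
D19: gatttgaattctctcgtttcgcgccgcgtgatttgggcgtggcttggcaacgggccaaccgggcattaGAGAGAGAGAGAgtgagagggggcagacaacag
D17: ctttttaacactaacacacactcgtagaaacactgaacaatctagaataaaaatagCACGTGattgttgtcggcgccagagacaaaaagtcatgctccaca
D55: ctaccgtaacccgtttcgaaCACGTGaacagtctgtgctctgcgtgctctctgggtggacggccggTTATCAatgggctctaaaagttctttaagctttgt

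The GATA motif, the sequence recognised by GATA factors such as the intestinal regulator ELT-2, was the most frequent of 14 motifs searched for on both strands. It lay within 50 bp of the summit in 335 of 710 members (47.2%, Wilson interval 43.5 to 50.9%). In windows of the same length centred 300 bp to either side of the same summits it was found in 21.4% (19.4 to 23.6%). It was the most frequent of the 14 motifs in these flanks too. WGATAR admits several sequences and most of the other motifs only a single sequence, so its first place does not set the members apart. Among all autosomal peaks the share with the GATA motif was 40.1%. Peaks within 500 bp of starts held it less often than members, in 35.6% (33.2 to 38.1%), and the intervals did not overlap. For autosomal peaks in genes the share was 43.0% (39.0 to 47.1%) and for X-linked distal intergenic peaks 40.3% (34.1 to 46.7%), and both intervals overlapped that of the members. Regions of the pooled list that met the same position rule but fell below the peak threshold held it in 27.6% of 5377 cases.

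**Figure D1:**
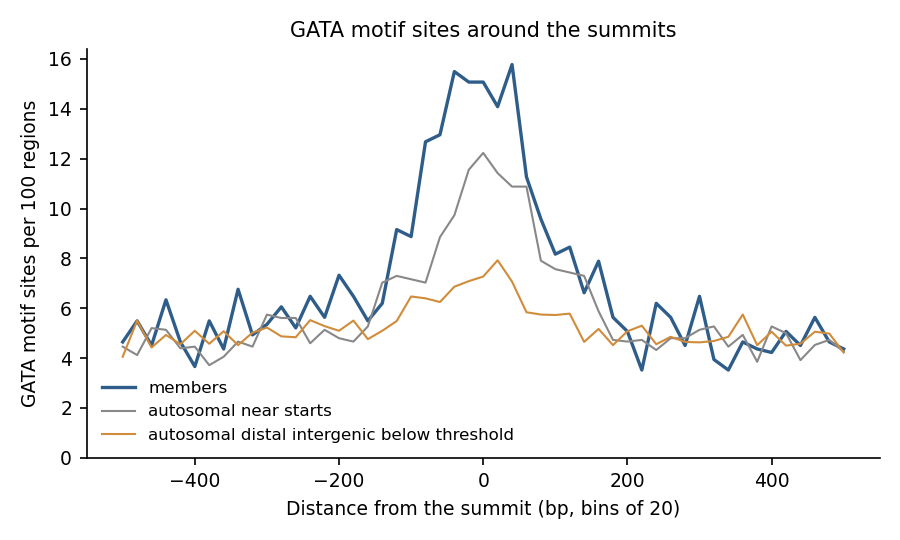
GATA motif sites per 100 regions (y axis) in 20 bp bins by distance from the summit (x axis), for the members, the autosomal peaks within 500 bp of starts and the autosomal distal intergenic regions below the threshold. The members' curve stands at 15.1 sites per 100 regions at the summit and at 5.07 at 200 bp downstream of it along the plus strand.

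Several sites often occurred together. At least 2 GATA motif sites lay in the window of 132 members (18.6%, 15.9 to 21.6%), against 3.59% of their flanks, 13.6% of autosomal peaks near starts (11.99 to 15.5%) and 6.16% of distal regions below the threshold. Autosomal peaks in genes, with 18.1% (15.1 to 21.4%), were close to the members, and X-linked distal peaks, with 13.9% (9.99 to 18.9%), had an overlapping interval. The extended form CTGATAAR, every copy of which also contains WGATAR, was present in 48 members (6.76%, 5.14 to 8.85%) and in 0.704% of flanks. Its share near starts, 7.77% (6.51 to 9.25%), had an interval that overlapped the members'. Peaks near starts thus held the shorter motif less often than members. The extended one was not less frequent there, nor in genes (7.96%, 6.01 to 10.5%) or at X-linked distal peaks (8.23%, 5.33 to 12.5%).

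Within the members, all above the peak threshold, the GATA motif share did not follow the strength of the peak. With the members cut into 4 equal parts by descending pooled signal it was 46.1, 46.6, 50.3 and 45.8%. Members with the motif had a median pooled signal of 67.4, and those without it 68.6. It differed more with position: 33.9% of the 121 members at 500 to 750 bp from the nearest start held the motif, and 58.0% of the 100 members at 3000 to 5000 bp did so, although the bins between did not rise steadily (46.9, 49.6, 39.3 and 51.5%) and the bin over 5000 bp stood at 52.8%.

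The GA repeat, a sequence bound by the zinc finger protein EOR-1 in this species, was found in 48 members (6.76%, 5.14 to 8.85%), against 0.775% of flanks and 5.15% of all autosomal peaks. It was less frequent near starts (3.58%, 2.75 to 4.65%) and about as frequent in genes (7.26%, 5.39 to 9.70%). The E-box, a site of basic helix-loop-helix proteins, was found in 54 members (7.61%, 5.88 to 9.79%), against 2.39% of flanks, 3.99% of peaks near starts (3.10 to 5.11%), 6.02% of those in genes (4.34 to 8.29%) and 5.34% of all autosomal peaks. At least 1 of the GATA motif, the GA repeat and the E-box was present in 393 members (55.4%), in 40.2% of peaks near starts, in 50.1% of autosomal peaks in genes and in 24.0% of the members' flanks. For 317 members none of these was found in the window.

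**Figure D2:**
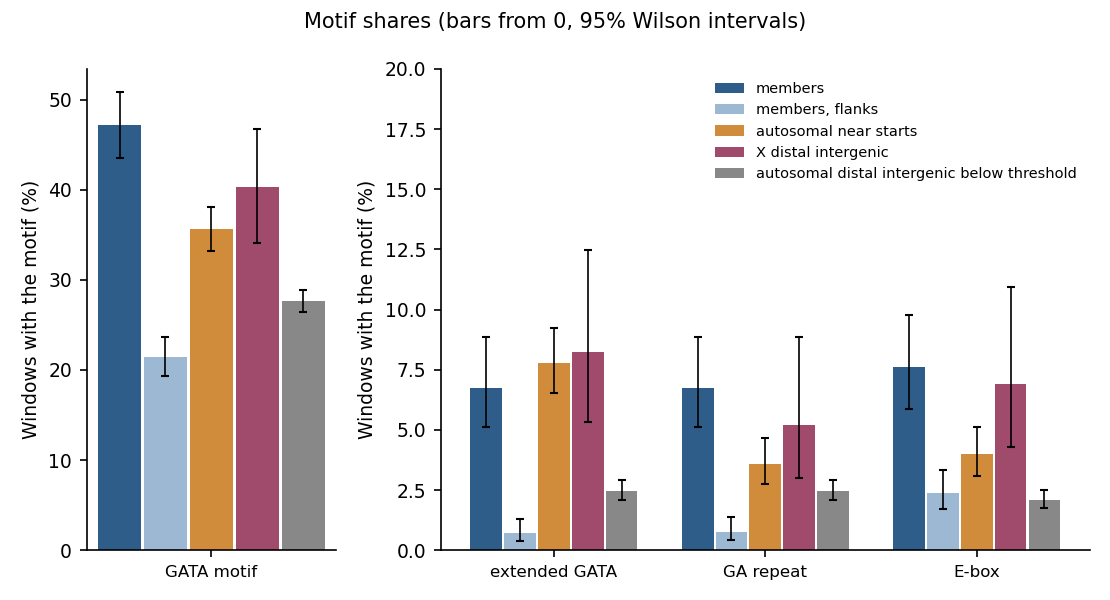
Share of windows, from 50 bp before to 50 bp after the summit, with the GATA motif WGATAR, its extended form CTGATAAR, the GA repeat GAGAGAGA and the E-box CACGTG (bars, percent, with 95% Wilson intervals) in the members, their flanks, the autosomal peaks near starts, the X-linked distal intergenic peaks and the distal regions below the threshold. The members' bar for the GATA motif, 47.2%, is above that of the peaks near starts, 35.6%, and of the flanks, 21.4%.

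The core site of many nuclear receptors, AGGTCA, was present in 22 members (3.10%, 2.06 to 4.65%), while 2.96% of their flanks, 3.19% of all autosomal peaks and 3.09% of distal regions below the threshold held it. A pair of related hexamers gave mixed values: AAGTCA was found in 6.62% of members and 3.80% of flanks, and AGTTCA in 5.63% of members and 7.68% of flanks. Other letters were rarer at the summits than beside them. A run of T, TTTTTTTT, occurred in 6.48% of members and 15.1% of flanks, and the TATA sequence TATAAA in 8.03% and 13.0%. Base composition moved with these shares: the median GC content was 39.6% in the members' windows, 33.7% in their flanks, 42.6% in peaks near starts and 31.7% in distal regions below the threshold, and its part in the motif shares was not tested.

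Counting all 2080 words of 6 letters, with each word and its reverse complement taken as one, gave the same leaders. TGATAA lay in 35.1% of members and 10.2% of flanks, GAGAGA in 25.1 and 5.70%, and CTTATC in 23.1 and 4.30%. These words overlap one another and the motifs above. Among the other leading words were CGTCTC, in 14.2% of members and 3.03% of flanks, and ACGCAG, in 13.0 and 1.90%. Both were as frequent in peaks near starts (13.8 and 13.2%). On the other strand CGTCTC reads GAGACG, which can overlap ACGCAG and AGAGAC, another of the leading words. How often they lay together was not counted. The words with the largest drop from flank to summit were AAAAAT (28.7 against 52.6%) and AAAATT (22.4 against 45.1%).

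The remaining motifs were rare. CCGCCC was found in 3.24% of members, 1.55% of flanks and 5.34% of peaks near starts. TGTTTAC, the core of forkhead sites, was found in 2.54% of members and 1.20% of flanks, TGACTCA, a site of bZIP proteins, in 1.83 and 0.493%, and CACACACA in 4.08 and 1.13%. The telomere repeat unit TTAGGC occurred in 0.845% of members and 3.31% of flanks.

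The pooled signal, the authors' own value for each region, ran from 46.7 to 349 in members, with a median of 68.0 and quartiles of 55.7 and 89.3. The other autosomal peaks had a median of 66.9 and reached 596, and X-linked distal intergenic peaks had a median of 68.5 and reached 539. Members were thus of ordinary strength, with a median rank of 1682.5 among 3457 peaks (1563 to 1798) against 1748 (1675 to 1832) for the other autosomal peaks. The 100 strongest peaks included 9 members (1.27%, 0.668 to 2.39%), 9 autosomal peaks in genes (1.59%), 55 near starts (3.72%, 2.87 to 4.81%) and 19 X-linked distal ones (8.23%, 5.33 to 12.5%), against 2.89% of all peaks.

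Regions that met the position rule reached the threshold about as often as others. Among autosomal regions of the pooled list, 710 of 6087 that met it were peaks (11.7%, 10.9 to 12.5%), against 2045 of 18533 that did not (11.0%, 10.6 to 11.5%) and 11.5% of all 30000 pooled regions. The 11.5% is fixed by the threshold itself.

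Most members were found in both replicates. The authors' thresholded set was derived from the pooled list and both replicate lists, so replicate values describe the members and do not test them. At a q under 0.05, 686 members (96.6%) overlapped a region in replicate 1, where 31.3% of all regions passed, and 708 (99.7%) did so in replicate 2, where 37.6% passed. Among the strongest 3457 regions of each replicate, 448 members were found in both (63.1%, 59.5 to 66.6%), near the 62.5% of all peaks. A further 91 were found in replicate 1 only, 160 in replicate 2 only and 11 in neither.

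The order of the members differed between the replicates. Pearson's r of the log2 signals was 0.383 and Spearman's rho 0.350 over the 704 members with a region in both, compared with 0.554 and 0.455 over 1455 autosomal peaks near starts, 0.409 and 0.331 over 557 in genes and 0.709 and 0.499 over 225 X-linked distal ones. The members' coefficients were thus close to those of autosomal peaks in genes. Points within each set share their libraries, and the members' pooled signals spanned a narrower range, up to 349, than those of peaks near starts and X-linked distal ones, up to 596 and 539; in genes they reached 335. Signals were on a different scale in each list, 6.82 to 123 with a median of 25.1 in replicate 1 and 13.9 to 234 with a median of 47.4 in replicate 2. The summits of both replicates lay within 50 bp of the pooled summit in 482 members (67.9%, 64.4 to 71.2%), against 71.3% of the other autosomal peaks (69.3 to 73.2%).

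**Figure D3:**
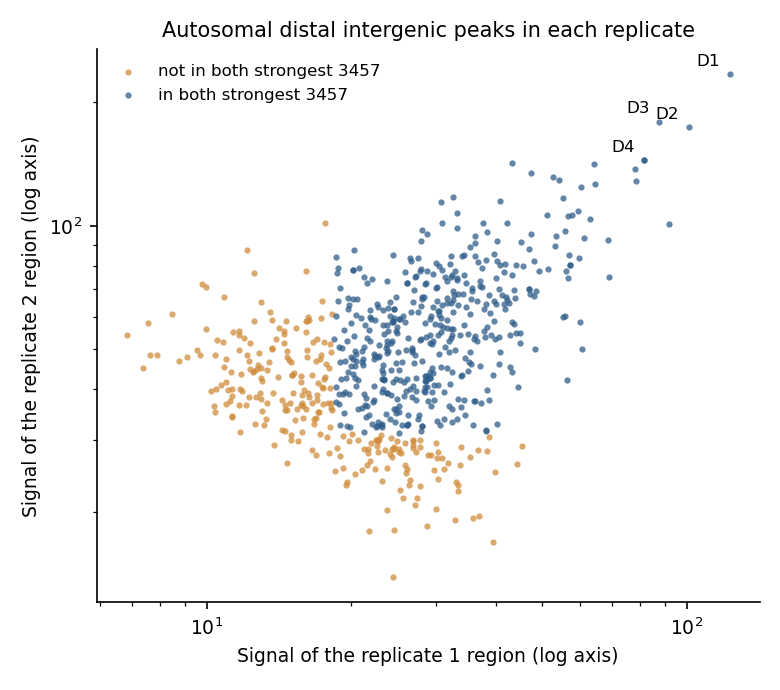
Signal of each member's region in replicate 1 (x axis) and replicate 2 (y axis), both on log axes, with 1 point for each of the 704 members that had a region in both; colour marks the 448 members among the strongest 3457 regions of both replicates. D1 to D4 lie at the upper right in both replicates, and most other points form a broad cloud.

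D1, D2 and D3, the strongest members by pooled signal, ranked high in both replicates. The pooled list was made from both replicates, so this choice favours high ranks in each and does not test them. D1, upstream of K12H4.5, had a signal of 123 in replicate 1 and 234 in replicate 2 and ranked 26 and 27. D2 near Y37A1A.2 (101.2 and 174) ranked 42 in both, and D3, 2950 bp upstream of the MAP kinase phosphatase gene vhp-1 (87.8 and 179), ranked 58 and 41. Other strong members had close ranks in replicates 1 and 2, such as D4 (68 and 70) and D17 (162 and 161). Some did not, such as D10 (425 and 74) and D19 (503 and 140). The most uneven members were found at much lower rank in replicate 1. D331, upstream of dod-19, ranked 1206 in replicate 2 with a signal of 54.1 but 20442 in replicate 1 with 6.82, and D126 near nhr-20 ranked 311 (87.3) and 7429 (12.2). No overlapping region at all was listed in replicate 1 for 4 members, near hacd-1, T21C9.6, rei-1 and act-5, and in replicate 2 for 2, near cpz-1 and F53A2.9. The genes of these uneven members were chosen after their values were seen.

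The genes nearest to the 20 strongest members are named by the strength of their peak and were not counted by function. Nearest refers here to the closest protein-coding start, and noncoding genes or the bodies of other genes lay closer to some members. A nearest gene states proximity only, and the gene a distal region acts on is not known from these data. D8 (pooled signal 195, 64.6 in replicate 1 and 126 in replicate 2) lay 3901 bp downstream of the start of atfs-1, the transcription factor of the mitochondrial unfolded protein response. D11 (182, 54.3 and 129) lay 871 bp upstream of cbp-1, the CBP/p300 acetyltransferase. D10 (185, 43.3 and 142) lay 1046 bp upstream of ppm-2, a protein phosphatase gene, but 6 bp upstream of the noncoding RNA gene T23F11.10. In all of these the replicate 2 signal was the higher, as was usual on that list's scale.

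The signals of D15, D17 and D18 were close to each other. D15 (168, 68.6 and 92.2) lay 703 bp upstream of acs-2, an acyl-CoA synthetase gene of fatty acid oxidation. The noncoding RNA gene linc-108 started closer to D15, which lay 266 bp upstream of it. D17 (163, 59.5 and 109) lay 2367 bp upstream of tps-2, a trehalose 6-phosphate synthase gene, and D18 (162, 62.8 and 104) lay 1730 bp upstream of mtrr-1, the methionine synthase reductase. D7 and D9 (202 and 189) were both upstream of emb-8, the NADPH-cytochrome P450 reductase, at 3145 and 1787 bp. D9 was relatively stronger in replicate 1, where it ranked 50 against 211 in replicate 2. D12, 13371 bp upstream of irld-18, a receptor L-domain gene, was the farthest of all members from a protein-coding start. Further nearest genes among the strongest 20 were nhr-61, nhr-237, egg-5, T24E12.13, Y54G11A.2, C08E8.3 and F40E3.3. D5 at C08E8.3 was the strongest member of its chromosome with a signal of 210.4, as D1, D2, D3 and D6 (near F40E3.3, 209) were of theirs.

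Some members lay at the starts of noncoding RNA genes, which the rule did not bar. A noncoding gene or pseudogene started within 500 bp of the summit of 135 members (19.0%, 16.3 to 22.1%). Of these summits, 97 (71.9%) were upstream of the nearest such start. The rule bars summits inside genes, so it partly fixes the upstream share, for which no background was counted. A noncoding start lay within 500 bp of 17.2% of autosomal peaks near protein-coding starts (15.3 to 19.2%). For distal regions below the threshold it was 21.1% (19.98 to 22.2%), and both intervals overlapped that of the members.

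Small nucleolar RNA genes, whose products guide rRNA modification, started within 500 bp of 14 members (1.97%, 1.18 to 3.28%) against 0.521% of distal regions below the threshold (0.361 to 0.752%), 2.23% of autosomal peaks near starts and 4.96% of those in genes. Small nuclear RNA genes, which include the spliced leader genes used in trans-splicing, started within that distance of 7 members (0.986%, 0.478 to 2.02%) against 0.167% of distal regions below the threshold (0.0881 to 0.318%), 0.203% near starts and 1.24% in genes. Counted by member, both classes were thus more frequent than at the weaker distal regions, but not more frequent than at peaks in genes. Of the 7 members at small nuclear RNA genes, D4 and D140 lay at sls-2.1, and D16 and D120 at sls-2.4. These 7 are therefore not separate genes, and whether the difference holds when counted by gene was not tested. Genes of piRNAs, which direct germline silencing, did so for 31 members (4.37%, 3.09 to 6.13%) against 10.4% of distal regions below the threshold (9.63 to 11.3%), 2.5% near starts and 3.72% in genes. Transfer RNA genes did so for 4 members (0.563%, 0.219 to 1.44%), against 0.670% of distal regions below the threshold, 1.28% near starts, 5.66% in genes and 6.93% of X-linked distal peaks (4.31 to 11.0%).

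The SL2 spliced leader genes stood out among the strong members, chosen here after their values were seen. D4 (pooled signal 226, 81.7 in replicate 1 and 144 in replicate 2) had its summit 41 bp upstream of sls-2.1, and D16 (168, 55.4 and 117) 43 bp upstream of sls-2.4. D613, 83 bp upstream of sls-2.3, was weak, with a signal of 51.3. D140, 162 bp downstream of the sls-2.1 start, overlapped the same replicate regions as D4, so the pair are not separate observations in the replicates. The replicate 1 summit of D16 lay 126 bp from the pooled one, beyond the sls-2.4 start. D120, also near sls-2.4, overlapped the same replicate 1 region as D16, so those 2 are not separate in replicate 1. Summits just upstream of snoRNA genes included D32, 72 bp from F59C6.15 (142), D65, 34 bp from F12F6.11 (117), and D137, 27 bp from T06C12.16 (98.2).

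The nearest protein-coding start lay at a median of 1558.5 bp from the summits, with a range of 506 to 13371 bp. The nearest gene edge of any biotype lay at 615.5 bp, and the protein-coding genes on either side of a member stood a median of 4138.5 bp apart. The 500 bp threshold cut through a continuous spread: 59 intergenic autosomal peaks lay over 400 and up to 500 bp away and 50 over 500 and up to 600 bp. Just beyond it were members at 506 bp (near R53.5, signal 54.1), 507 bp (ttr-23, 86.6) and 509 bp (smo-1, 55.1), and just within it were peaks that were not members at 496 bp (nex-1, 54.5), 494 bp (ccar-1, 49.3) and 492 bp (faah-2, 68.4).

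Density fell with distance. The autosomes held 19.9 Mb of sequence that met the rule, and 35.6 members per Mb of it (exact Poisson interval 33.0 to 38.3). At 500 to 750 bp from a start there were 55.3 per Mb (45.9 to 66.1), at 1500 to 2000 bp 34.8 (27.8 to 43.1), and beyond 5000 bp 16.1 (12.1 to 21.1). Members were denser on the upstream side: 540 lay upstream of their nearest start, 38.2 per Mb (35.0 to 41.5), and 170 downstream, 29.3 per Mb (25.1 to 34.1). Between genes transcribed towards each other there were 66 members, 24.5 per Mb (18.9 to 31.1), compared with 221 between divergent genes at 34.3 (29.9 to 39.1) and 423 between tandem genes at 39.2 (35.6 to 43.2). The divergent and convergent intervals overlap, whereas the tandem and convergent ones do not.

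The autosomes differed too. Chromosome II held 178 members at 47.0 per Mb (40.4 to 54.4) and chromosome III 139 at 46.8 (39.3 to 55.2), whereas chromosome IV held 132 at 26.2 (21.9 to 31.0). Chromosomes I and V lay between, with 102 members at 33.5 (27.3 to 40.7) and 159 at 31.2 (26.5 to 36.4). Taking the pooled regions that met the rule as the base, chromosome II was again highest with 15.03% of them peaks (13.1 to 17.2%) and chromosome IV lowest with 8.93% (7.58 to 10.5%). On that base chromosome III, with 12.6%, was level with chromosome V, with 12.7%, and chromosome I, with 9.49%, was near chromosome IV, so the order of the others depended on the base. With each autosome cut into 3 equal lengths, the central ones had 47.0 members per Mb (41.9 to 52.6) and the outer ones 30.1 (27.2 to 33.1). How much of each chromosome can be mapped uniquely was not tested.

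**Figure D4:**
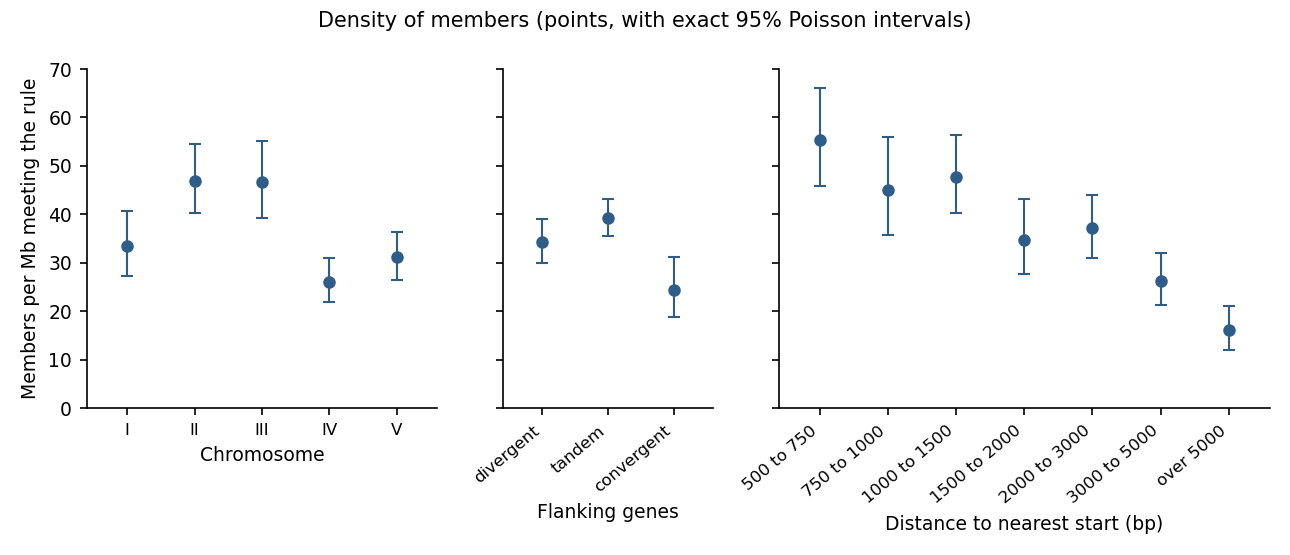
Members per Mb of autosomal sequence that meets the rule (y axis, points with exact 95% Poisson intervals), by chromosome, by the orientation of the flanking protein-coding genes and by distance to the nearest protein-coding start in bp. Chromosomes II and III are at 47.0 and 46.8 per Mb, and the nearest distance bin is at 55.3 and the farthest at 16.1 per Mb.

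The next peak of any kind was a median of 4135 bp away from a member, against 7271.5 bp for autosomal peaks near starts, 3239 bp for those in genes and 3948 bp for X-linked distal peaks. It lay within 1000 bp of 110 members (15.5%, 13.0 to 18.3%), of 9.59% of peaks near starts (8.20 to 11.2%), of 14.0% of those in genes and of 12.01% of all autosomal peaks. Members were thus closer to other peaks than peaks near starts were, and spaced about as those in genes. Most stood alone among members: with members within 2000 bp of each other joined, 536 were single, 63 runs held 2, 12 held 3 and 3 held 4. The runs of 4 lay upstream of T09F3.2, upstream of dmd-6, a DM domain transcription factor gene, and between the divergent genes letm-1 and lpin-1, the latter encoding the phosphatidate phosphatase lipin. Noncoding genes lay closer to some members of these runs. D176 was 2 bp upstream of T09F3.6, D122 lay 2 bp from H37A05.6 and D90 lay 275 bp upstream of a piRNA gene. Runs of 3 included those upstream of pqm-1, a zinc finger factor of stress and ageing, daf-5, the Ski family factor of dauer formation, klf-1, a Krüppel-like factor, zyg-11, a ubiquitin ligase adaptor, and emb-8. These genes were named because of their runs, after the values were seen.

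Signals within a run were often unequal. Upstream of emb-8 the pooled signals were 202, 189 and 84.8, and upstream of nhr-61, at 4048, 955 and 2180 bp, they were 181, 69.0 and 55.02. At pqm-1 the members at 3862, 1383 and 3205 bp upstream had signals of 67.1, 66.0 and 51.9, and at dmd-6 the signals ran from 47.1 to 109. A strong member with weak neighbours was thus seen at nhr-61, and members of similar strength at pqm-1. Beside hif-1, the hypoxia-inducible factor, D75 (114.8) and D598 (52.6) overlapped the same region in each replicate and cannot be told apart there.

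**Figure D5:**
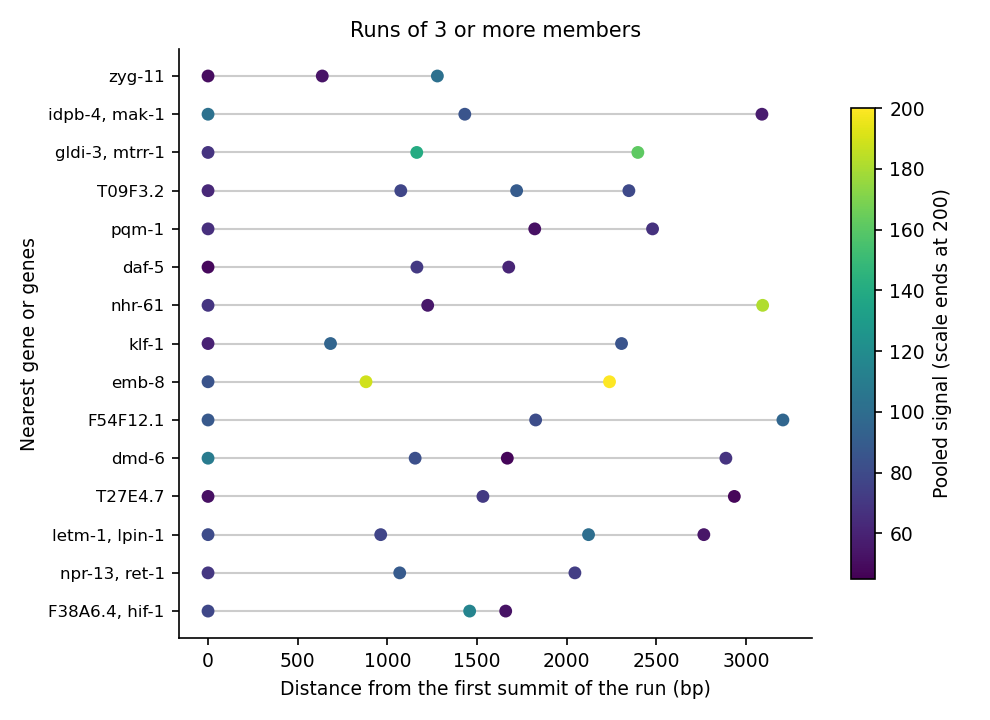
The 15 runs of 3 or more members, each within 2000 bp of the next, with 1 row per run named by its nearest gene or genes. The x axis is the distance in bp from the first summit of the run, and colour gives the pooled signal on a scale that ends at 200; the brightest points belong to emb-8 (202 and 189) and nhr-61 (181).

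The 710 members had 593 different nearest genes, of which 494 had 1 member, 83 had 2 and 16 had 3 or more. For 110 members (15.5%, 13.0 to 18.3%) the nearest gene also had a peak within 500 bp of a start.

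Of 14 gene families counted, nuclear hormone receptor genes were nearest to the most members. They were nearest to 26 (3.66%, 2.51 to 5.31%), at 20 different genes, compared with 2.74% of the other autosomal peaks, which lies inside the members' interval, and 1.43% of autosomal protein-coding genes. The strongest were D13 at nhr-61 (181, with 60.3 and 124 in the replicates), D20 at nhr-237 (161, 57.7 and 106) and D79 at nhr-88 (114, 43.6 and 69.8). All 3 lay upstream.

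Secreted peptide and protease genes were also represented. Neuropeptide and insulin genes were nearest to 6 members (0.845%, 0.388 to 1.83%) against 0.0978% of other autosomal peaks and 0.621% of genes, led by nlp-40 (138), ins-11 (74.9) and nlp-36 (69.9). Lysosomal and digestive proteases were nearest to 6 members (0.845%, 0.388 to 1.83%) at 3 genes, asp-13 (116), asp-1 (99.9) and asp-15 (47.0). This compares with 0.391% of other autosomal peaks, which lies inside the members' interval, and 0.122% of genes. Of the 3 protease genes, asp-1 alone had 3 members, so the regions do not count as separate genes. bZIP factor genes were nearest to 4 members (0.563%, 0.219 to 1.44%) against 0.929% of other autosomal peaks and 0.0986% of genes, led by zip-7 (100.6), zip-11 (60.8) and zip-5 (58.0).

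Ribosomal protein and detoxification genes were nearest to members less often than to the other autosomal peaks. Ribosomal protein genes were nearest to 1 member, at rps-28 (71.6), which is 0.141% (0.0249 to 0.793%) against 1.81% of other autosomal peaks. Detoxification genes of the UGT, cytochrome P450 and GST families were nearest to 1 member, at ugt-49 (79.3), which is again 0.141% (0.0249 to 0.793%), against 2.54%. Homeobox, collagen and GATA factor genes were nearest to no member (upper Wilson bound 0.538% for each), and to 0.0978, 0.196 and 0.0489% of the other autosomal peaks, so no difference was detectable. Chemoreceptor genes were nearest to 3 members (0.423%, 0.144 to 1.23%), at srg-26, sre-23 and srh-16, and to 0.831% of the other autosomal peaks, while they make up 6.63% of autosomal protein-coding genes.

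The other families gave few members. F-box and MATH-BTB genes were nearest to 6 members (0.845%), led by fbxc-29 (157), fbxa-30 (152) and fbxa-167 (74.7), against 1.08% of other autosomal peaks and 2.19% of genes. C-type lectin genes were nearest to 3 members (0.423%), at clec-170 (87.7), clec-64 (62.8) and clec-218 (58.7), against 0.929% of other autosomal peaks. Saposin and lysozyme genes were nearest to 2 (0.282%), at lys-2 (56.4) and spp-17 (55.2), against 0.342%, and histone genes to 1 (0.141%), at his-9 (86.9), against 0.147%. For all of these families the share of the other peaks lay inside the members' interval.

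Little of the sequence under the summits was repeated. Words of 31 bases found more than once in the genome lay in the windows of 21 members (2.96%, 1.94 to 4.48%), against 2.97% of peaks near starts, 7.79% of autosomal peaks in genes and 5.99% of distal regions below the threshold. In 2 members, near eel-1 and zip-11, the whole window consisted of such words, and the most frequent word, near Y48G8AR.8, had 2446 copies. D6 near F40E3.3, among the 20 strongest, held 51 such words with up to 8 copies, and shared 22 of them with D206 near K08F11.1. The sources used here do not say how reads from repeated sequence were assigned.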

How the data were processed

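ChIP-seq of eGFP-NHR-77 was measured in 2 libraries, which the labels call biological replicates of 1 group. Each deposited ce11 list gives a signal per region (the authors' own value, on the scale of its list) and a −log10 q-value, which was at 3.87 in every member. Per the listings deposited with the files, the thresholded peak set was derived from the pooled and both replicate lists, and these from alignments and a shared control library. The aligner, peak caller, versions, sequencing depth, treatment of multiply mapping reads and the threshold for irreproducibility between replicates were not given in the sources used here, so depth is unknown. The labels name nhr-77 as the antibody target but describe the experiment as against the eGFP fusion, so which epitope was precipitated is not known here. Lists on the ce10 build were not used.

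Region ends were compared with the reference chromosomes before coordinates were used. Summits were placed against Ensembl release 115 (WBcel235), distances were taken to the nearest transcript start, and motifs and repeated words were searched in the RefSeq WBcel235 genome. Lengths meeting the rule were sampled every 10 bp. A member matched a replicate region at 1 bp of overlap or more. Wilson and exact Poisson intervals (95%), and order-statistic intervals of medians, cover counting error over regions only; regions are not replicates, and with 1 group no test was made. The position rule and motif search were tested on simulated data. Named genes are those nearest to the 20 strongest members, to the strongest of each autosome and to up to 3 members per gene family by signal, besides those said to be chosen later. Members, motifs and gene lists were chosen with earlier results of these data known. Python 3.11.15, numpy 2.4.6, pandas 2.3.3, scipy 1.17.1 and matplotlib 3.10.9 were used.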

Additional observations from a re-analysis of the deposited data

How the results depend on the processing

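Of 52 alternatives for the named results, 29 stayed within the main interval and 23 moved beyond it. The share of autosomal peaks meeting the rule was 35.2% with a start window of 250 bp, 18.4% with 1000 bp, 28.4% with only protein-coding genes barred, 20.9% with starts of any biotype and 17.5% with the whole region decisive. The share of members in both replicates was 30.7% with 1728 strongest regions per replicate and 90.7% with 6914. With 25 and 100 bp to either side of the summit, WGATAR was found in 27.3 and 65.6% of members, CTGATAAR in 3.80 and 12.1%, GAGAGAGA in 3.38 and 13.9% and CACGTG in 3.80 and 11.97%. Flanks at 500 bp held GAGAGAGA in 0.423%. The median distance to a start of any biotype was 1060.5 bp. Members per Mb were 43.2 (250 bp) and 25.7 (1000 bp) on chromosome I, 39.2 (1000 bp) on II, 60.6 (250 bp) on III and 33.5 (250 bp) on IV. Words of 21 bases were repeated in 15.5% of members. The direction of many of these shifts is fixed by the setting. Wider motif windows, more regions per replicate and shorter words can only raise a share. Wider start windows can only lower the share meeting the rule. The cause of the other shifts was not tested.

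With 1 replicate's list in place of the pooled set, the share meeting the rule was 26.1% from either. WGATAR lay within 50 bp of the replicate 1 summit in 47.7% of the 706 members with a region there. For replicate 2 summits it was 46.2% of 708 members. These were the same members with the summit moved, not peaks drawn from 1 replicate alone. For the other motifs, 39 of 60 alternatives stayed within the interval. No paired analysis was possible because there was 1 group. Depth is unknown, so it was not tested how many weaker distal regions deeper libraries would add.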
